A study of Mus musculus with 6 samples.

Results

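Kruppel-like factors (KLFs) are transcription factors that bind CACCC and GC-rich promoter elements through zinc fingers at the carboxyl end of the protein. The rest of the protein differs between members, and several recruit repressors, CtBP in KLF3 and KLF12 or Sin3A in KLF9, KLF10 and KLF13. In liver, KLF15 and KLF9 respond to glucocorticoid and act on amino acid use and gluconeogenesis, KLF6 is an injury-response factor, and KLF2 is best known from the flow response of endothelial cells. The genes examined here were the 10 that were chosen by symbol, Klf2, Klf3, Klf4, Klf5, Klf6, Klf9, Klf10, Klf12, Klf13 and Klf15, among 53599 gene symbols in the count table. All 10 were found, 8 passed the filter on low counts, and Klf4 and Klf5 did not.

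RNA-Seq was performed on liver hepatocytes taken 4 days after injection of an AAV8 vector, with 3 libraries from mice given AAV8-TBG-Cre (empty vector, EV) and 3 from mice given AAV8-TBG-HA-Sox4-P2A-Cre (Sox4). The labels give the genotype as WT for EV and Sox4 for the treated mice, whereas the study's methods describe male, homozygous Rosa-LSL-Cas9-EGFP mice on a C57BL/6J background, injected when 4 to 8 weeks old, so Cre, Cas9 and EGFP would be shared by both groups. The TBG promoter directs expression to hepatocytes, and cells were released by liberase digestion and enriched on Percoll. For the RNA-Seq the methods state the dose of the Sox4 vector but not that of the EV vector. The comparison asks how the Klf genes stand when Sox4, a transcription factor studied here in hepatobiliary reprogramming, is expressed in hepatocytes.

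Total counts were 15090629 to 16249382 in EV and 16679195 to 16964860 in Sox4. The Sox4 gene was counted 2, 0 and 3 times in EV 1 to 3 against 21697, 15097 and 11816 times in Sox4 1 to 3, which matches the labels. Hepatocyte markers summed to 117200 to 140300 CPM (counts per 1000000, here with the trimmed mean scaling TMM) in EV and 81400 to 92220 in Sox4. This difference depends on the scaling, since TMM set library sizes of 12977664 to 13770352 in EV against 19577244 to 19950939 in Sox4. Most of the sum was Alb, whose unscaled counts overlapped, at about 1097700 to 1439510 in EV and 1236320 to 1440610 in Sox4. Markers of other cells were present at low levels. Summed over the 10 markers of each list, endothelial genes were at 20.3 to 33.8 CPM in EV against 18.7 to 43.0 CPM in Sox4, Kupffer genes at 12.4 to 27.9 and 28.5 to 68.4 CPM, and stellate genes at 8.94 to 47.0 and 87.4 to 144 CPM. Most of the stellate sum was Reln, at 7.09 to 37.5 CPM in EV against 50.8 to 126 CPM in Sox4. Of 5 tested stellate markers 3 were higher (edgeR adjusted p under 0.05), against 29% of all tested genes, and 2 did not pass. The higher ones were Reln (log2 fold change 2.13), Col3a1 (1.93) and Rgs5 (2.48). Acta2, below the filter, was at 0 in every EV library and at most 0.200 CPM in Sox4. The 9 cholangiocyte markers summed to 40.7 to 54.0 CPM in EV against 87.2 to 97.0 CPM in Sox4, with Krt7 and Krt19 at 0 in every EV library, and the 8 blood cell markers to at most 2.20 CPM in EV and 6.13 CPM in Sox4. The part of other cell types in the values below was not tested.

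The proximal promoters of the 3 genes with the largest changes past the threshold are shown first, since these are the stretches that flank the starts of transcription and in which CACCC and GC elements, the sites KLFs themselves bind, can be read. Each run is the 250 bases upstream of the annotated start in RefSeq on GRCm38.p6, read 5′ to 3′ on the strand of the gene. Capitals mark matches on either strand of 4 motifs, CACCC, the GC box, which is GGGCGG, the E-box of clock and MYC-type factors, which is CACGTG, and a core bound by SOX factors, which is AACAAT.
Klf6, chr13:5861239-5861488, plus strand: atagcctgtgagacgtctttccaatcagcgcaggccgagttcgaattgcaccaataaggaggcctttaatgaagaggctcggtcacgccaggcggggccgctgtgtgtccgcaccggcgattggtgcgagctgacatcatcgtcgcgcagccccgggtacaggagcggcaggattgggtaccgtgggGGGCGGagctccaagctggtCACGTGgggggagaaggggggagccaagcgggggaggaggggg
Klf9, chr19:23140976-23141225, plus strand: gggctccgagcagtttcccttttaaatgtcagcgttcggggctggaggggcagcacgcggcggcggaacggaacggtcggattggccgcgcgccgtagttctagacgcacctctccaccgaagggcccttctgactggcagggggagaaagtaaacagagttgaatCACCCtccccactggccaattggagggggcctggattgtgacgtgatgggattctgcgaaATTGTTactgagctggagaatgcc
Klf15, chr6:90462326-90462575, plus strand: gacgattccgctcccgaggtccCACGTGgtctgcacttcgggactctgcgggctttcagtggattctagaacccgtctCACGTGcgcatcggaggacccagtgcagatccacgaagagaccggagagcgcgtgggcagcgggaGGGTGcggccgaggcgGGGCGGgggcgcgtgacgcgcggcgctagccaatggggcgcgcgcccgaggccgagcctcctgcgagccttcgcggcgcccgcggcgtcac
The Klf6 stretch held 1 GC box, 1 E-box and no CACCC, the Klf9 stretch 1 CACCC and 1 AACAAT, and the Klf15 stretch 1 CACCC, 1 GC box and 2 E-boxes, with GC contents of 64.8%, 59.6% and 72%. Promoter sequence was matched for 8 of the 10 genes, all but Klf5 and Klf10. Of these 8, 6 held CACCC, against 51.3% of 27025 promoters of the same length, 6 held GGGCGG, against 32.9%, and 3 held CACGTG, against 6.05%. AACAAT was found in 1 of the 8, against 9.65% of all promoters. ACAAAG, another SOX core, was found in none of the 8, against 16.5%, and TGTTCT, a part of the glucocorticoid response element, also in none, against 16.2%. Each motif was searched on both strands, and these matches describe letters in a window and not occupied sites.

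In the plot of levels by library, the Klf genes fell into those that rose, those that fell and those that did not separate the groups. Klf6 and Klf3 were higher in Sox4, and Klf15, Klf9 and Klf12 were lower (edgeR adjusted p under 0.05 by a quasi-likelihood F test, corrected after Benjamini and Hochberg over 12691 genes). Thus 5 of the 8 tested genes passed the threshold, where 55.1% of all tested genes did, 29% as higher and 26% as lower, so the number of members called lay near the background. The groups did not overlap for 6 of the 8, against 63% of all tested genes. Sox4 lay above EV for 3 of the 8 (33.1% of all) and below EV for the other 3 (29.9%). The median log2 fold change was -0.34 for the 8 and 0.04 for all tested genes. The study's text gives 3 animals for this experiment, while the labels do not tie a library to an animal. In bulk libraries fewer transcripts per cell and fewer cells that hold them cannot be told apart.

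**Figure D1:**
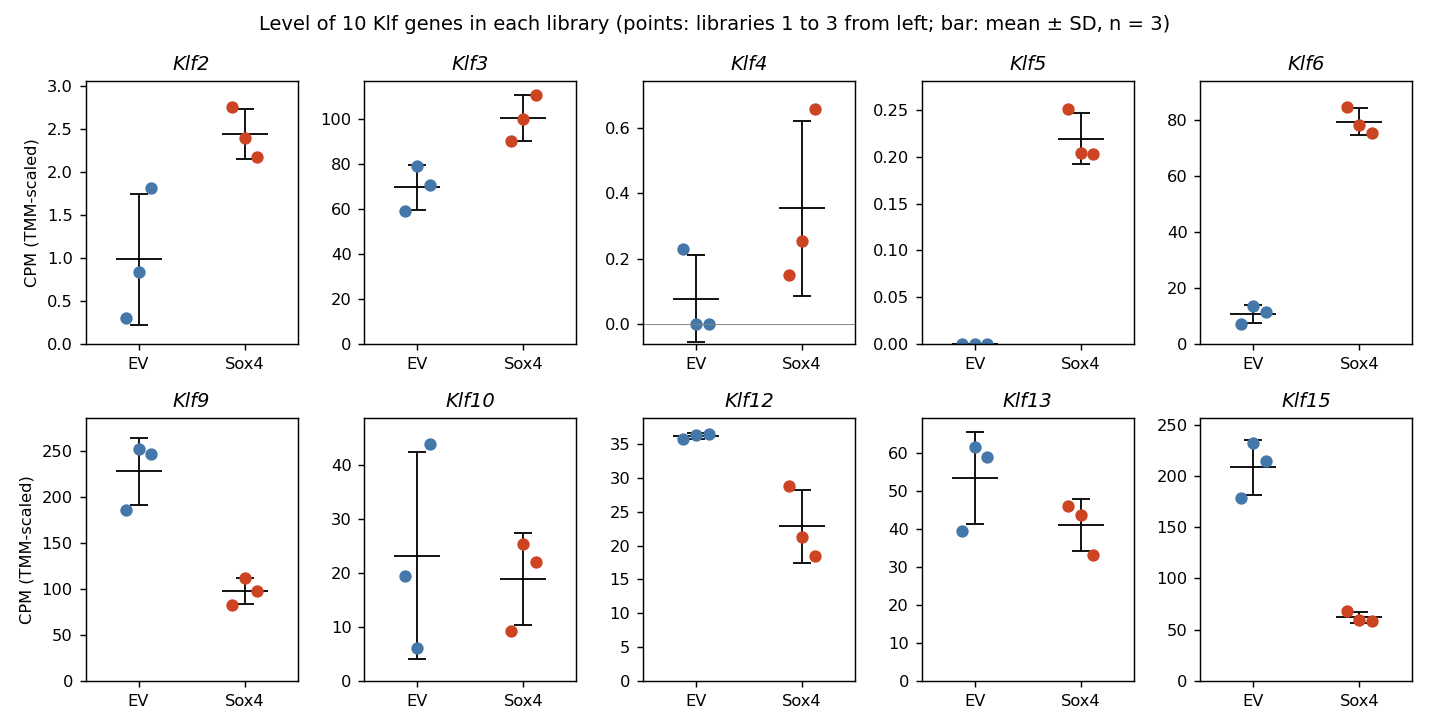
CPM on TMM-scaled library sizes (vertical axes, each with its own range) of the 10 Klf genes in the 3 EV and 3 Sox4 libraries, with the mean and SD as bars. Klf6 stands between 75.6 and 84.8 CPM in Sox4 against at most 13.6 CPM in EV, Klf9 and Klf15 lie lower in every Sox4 library, and Klf4 and Klf5 stay under 1 CPM.

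Klf6, a zinc finger activator known from hepatic injury and stellate cell activation, showed the largest change of the members. It was at 7.40, 13.6 and 11.7 CPM in EV 1 to 3 and at 84.8, 78.3 and 75.6 CPM in Sox4 1 to 3. All Sox4 libraries lay far above all EV libraries, and their spread was narrow. The mean rose from 10.9 ± 3.17 to 79.5 ± 4.76 CPM (SD, n = 3), 7.30-fold, with a log2 fold change of 2.87 (SE 0.27, edgeR adjusted p = 4.01e-06). Of all tested genes 5.17% had a larger log2 fold change. Klf6 is a gene that stellate cells also express, and Lrat, a defining marker of these cells, was at 0.228 to 0.581 CPM in EV against 0.501 to 2.53 CPM in Sox4. In Sox4 1 to 3, where Klf6 was highest in Sox4 1, the stellate marker sum was 135, 144 and 87.4 CPM, Reln 126, 117 and 50.8 CPM and Lrat 0.501, 1.74 and 2.53 CPM. The part of stellate cells in the Klf6 value was not tested.

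Klf2, the flow-responsive factor of endothelium, was the other tested member with a change of over 2-fold upward, at far lower counts. Counts of 4, 11 and 25 in EV 1 to 3 compared with 55, 47 and 43 in Sox4 1 to 3, equal to 0.308, 0.835 and 1.82 CPM and to 2.76, 2.40 and 2.18 CPM. The groups did not overlap, and EV 3 was the closest to Sox4. The log2 fold change of 1.29 (SE 0.63) did not pass the threshold (edgeR adjusted p = 0.0524), and it passed in 7 of 13 alternatives, with edgeR, DESeq2 or limma adjusted p from 0.00849 to 0.145. Without EV replicate 3 it was 2.06 (edgeR adjusted p = 0.00849), and without EV replicate 1 it was 0.86 (edgeR adjusted p = 0.128). The endothelial marker sum was 20.3, 28.8 and 33.8 CPM in EV 1 to 3, in the same order as Klf2, and 18.7, 36.7 and 43.0 CPM in Sox4 1 to 3, in the opposite order. The part of endothelial cells in the Klf2 value was not tested. Nos3, an endothelial target of KLF2, was at 0.304 to 0.925 CPM in EV against 0.200 to 0.861 CPM in Sox4, with a log2 fold change of -0.36 (edgeR adjusted p = 0.645). Thbd, another target, was below the filter, at 0.304 to 0.436 CPM in EV and at 0.451, 2.81 and 3.14 CPM in Sox4 1 to 3. S1pr1, also described as a KLF target, was at 65.2, 48.7 and 35.4 CPM in EV 1 to 3. In Sox4 1 to 3 S1pr1 was at 108, 114 and 110 CPM, with a log2 fold change of 1.15 (edgeR adjusted p = 8.24e-04). The link of these genes to Klf2 was not tested.

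Klf4 and Klf5, factors of epithelial renewal and pluripotency, were close to the limit of detection. Klf4 had 3, 0 and 0 counts in EV and 3, 5 and 13 in Sox4, with no separation of the groups. For Klf5 the EV libraries were all at 0 counts, a value that still leaves room for 0.231 CPM, and the Sox4 libraries had 5, 4 and 4. Sox4 thus had at least 0.972-fold the EV floor for Klf5 and at least 1.57-fold for Klf4, where every EV library was also at or under 3 counts. With no filter on low counts Klf5 passed (edgeR adjusted p = 0.0408) and Klf4 did not (edgeR adjusted p = 0.141), but the depth gives no size for a difference in Klf5 beyond the floor.

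Klf3 and Klf12 are repressors that recruit CtBP, and they moved in opposite directions. Klf3 was at 59.2, 78.9 and 70.6 CPM in EV 1 to 3 and at 90.1, 100.01 and 110.6 CPM in Sox4 1 to 3. The groups did not overlap, and the log2 fold change was 0.53 (SE 0.15, edgeR adjusted p = 0.00786). Klf12 was at 35.8, 36.3 and 36.5 CPM in EV and at 28.8, 21.2 and 18.4 CPM in Sox4. The EV libraries were nearly equal, whereas the Sox4 libraries were more spread out and all lay below EV, and the log2 fold change was -0.66 (SE 0.19, edgeR adjusted p = 0.00627). With library size alone, without TMM, where the median of all tested genes was 0.51, Klf12 was at -0.20 and did not pass (edgeR adjusted p = 0.315). Klf3 also shares 3.59% of its exon bases with Gm20033, annotated on the opposite strand.

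Klf9, Klf10 and Klf13 are repressors of the Sin3A-binding kind, and Klf9 alone of them passed the threshold. Klf9, an early target of glucocorticoid and thyroid hormone receptors, was at 186, 251 and 246 CPM in EV 1 to 3 and at 82.7, 112 and 98.1 CPM in Sox4 1 to 3. Every Sox4 library was below every EV library. The mean fell from 228 ± 36.2 to 97.5 ± 14.5 CPM (SD, n = 3), to 0.428 of the EV level, with a log2 fold change of -1.22 (SE 0.19, edgeR adjusted p = 1.60e-04). Klf13 was at 39.5, 61.4 and 59.0 CPM in EV and at 46.0, 43.7 and 33.1 CPM in Sox4, so the groups overlapped through EV 1. Its log2 fold change was -0.38 (SE 0.25, edgeR adjusted p = 0.112), and it was at -0.57 (edgeR adjusted p = 0.0139) without EV replicate 1, at -0.34 (edgeR adjusted p = 0.0431) with no filter and at 0.09 (edgeR adjusted p = 0.678) with library size alone.

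Klf10, induced by TGF-beta and by the circadian clock, varied more within the groups than between them. It was at 19.4, 6.15 and 43.9 CPM in EV 1 to 3 and at 9.32, 25.3 and 22.0 CPM in Sox4 1 to 3. The groups overlapped, with all Sox4 libraries inside the range of EV, and the log2 fold change was -0.30 (SE 0.93, edgeR adjusted p = 0.766). Clock genes varied between libraries of a group too. Arntl, the core activator of the clock, was at 42.0, 23.8 and 11.7 CPM in EV and at 22.6, 5.01 and 16.0 CPM in Sox4, and Dbp, a clock output gene, at 8.86, 27.0 and 48.7 CPM and at 9.87, 20.4 and 9.07 CPM. EV 3 and EV 1 stood at opposite ends for both clock genes, and the lowest and the highest Klf10 were in EV 2 and EV 3. Without EV replicate 3 Klf10 was at 0.55, and without Sox4 replicate 1 at 0.02, and neither passed (edgeR adjusted p = 0.536 and 0.985). The hour of harvest was not given in the sources used here, and its part in the value of Klf10 was not tested.

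Klf15, a glucocorticoid-responsive regulator of amino acid catabolism and gluconeogenesis, had the largest decrease of the members. It was at 179, 232 and 215 CPM in EV 1 to 3 and at 68.4, 59.3 and 58.3 CPM in Sox4 1 to 3. Every Sox4 library lay far below every EV library, and the Sox4 libraries were close to each other. The mean fell from 208 ± 27.1 to 62.0 ± 5.57 CPM (SD, n = 3), to 0.298 of the EV level, with a log2 fold change of -1.75 (SE 0.13, edgeR adjusted p = 7.09e-06). Of all tested genes 4.74% had a smaller log2 fold change.

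The plot of changes under each processing shows which of these values depended on a choice. Klf6, Klf3, Klf9 and Klf15 passed the threshold in the same direction under all 14 alternatives. Library size alone moved every member upward, by about the shift of all genes, and Klf10 and Klf13 lay on the other side of 0 there.

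**Figure D2:**
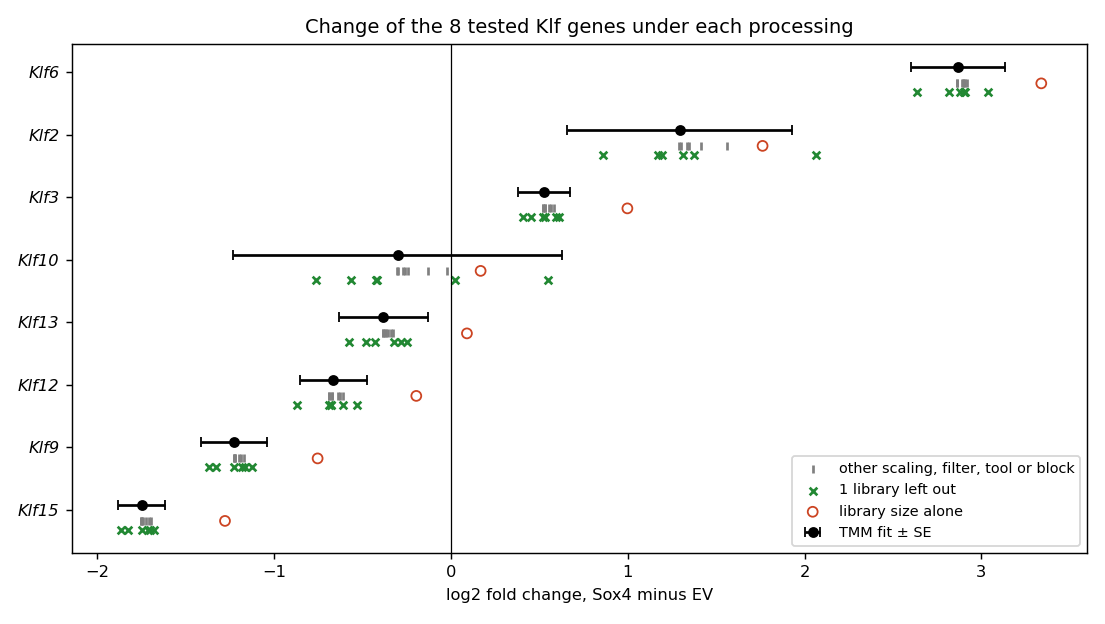
Log2 fold change of Sox4 over EV (horizontal axis) for the 8 tested Klf genes, with the TMM fit and its SE as a black point and bar, and the alternatives as grey ticks, green crosses for 1 library left out, and an open circle for library size alone. Klf6 ranges from 2.64 to 3.34 and Klf15 from -1.86 to -1.28, while Klf10 ranges from -0.76 to 0.55.

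To compare levels between members, CPM were divided by the exon length of each gene in GENCODE M21. In EV, Klf15 (74.6 ± 9.70 CPM per kb, SD, n = 3) and Klf9 (47.3 ± 7.53) stood above the rest, and their ranges did not overlap with each other or with Klf13 (7.08 ± 1.60), the next member. Klf13, Klf3 (6.19 ± 0.88), Klf10 (5.54 ± 4.59) and Klf12 (5.18 ± 0.057) followed with ranges that overlapped between neighbours, and then Klf6 (2.48 ± 0.72) and Klf2 (0.534 ± 0.414). In Sox4, Klf15 (22.2 ± 1.99), Klf9 (20.2 ± 3.004) and Klf6 (18.1 ± 1.08) were highest, and neighbours in this order overlapped. Klf3 (8.92 ± 0.91) came next, with no overlap to Klf6 above it or Klf13 (5.43 ± 0.91) below it, followed by Klf10 (4.52 ± 2.02), Klf12 (3.27 ± 0.77) and Klf2 (1.32 ± 0.158). Klf6 thus moved from rank 7 to rank 3 of the 10 genes. Scaled by coding length instead, Klf9 ranked first and Klf15 second in EV, and Klf15 ranked at 4 in Sox4, while Klf6 again moved from rank 7 to rank 3. These lengths are of an annotation on GRCm38, not that of the counts, and all annotated exons are taken as used.

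**Figure D3:**
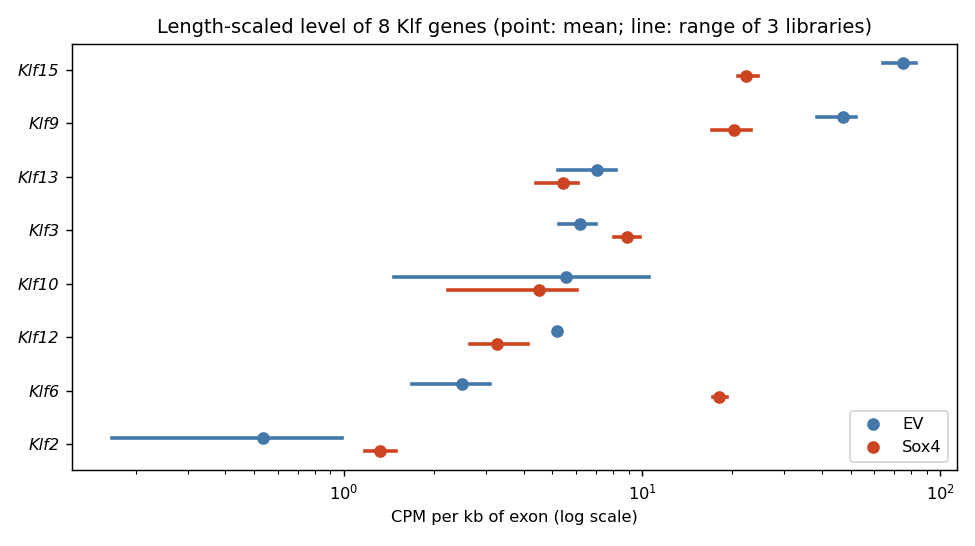
CPM per kb of annotated exon (horizontal axis, log scale) for 8 Klf genes, in order of the EV mean, with the mean as a point and the range of 3 libraries as a line. Klf4 and Klf5 are left out because counts were at or near 0. The EV levels run from 0.534 (Klf2) to 74.6 (Klf15), and in Sox4 Klf6 lies beside Klf9 and Klf15.

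The genes whose profile over the 6 libraries lay closest to the members with the largest changes were sought among the 9024 tested genes that had mean counts of 100 or more. For Klf6 these were Cdc25a, a cell cycle phosphatase, and Acer2, an alkaline ceramidase, with a root mean square difference of centred log2 CPM of 0.08 and 0.10. For Klf15 they were Rras, a small GTPase, and Mfhas1, at 0.06 and 0.07. Cdc25a was at 4.28 CPM in EV and 30.3 CPM in Sox4 (means of 3 libraries), and Rras at 18.5 and 5.40 CPM.

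The remaining Klf genes were divided in the same way. Klf7, an activator close to Klf6 in its zinc fingers, rose from 2.99 ± 0.482 to 23.1 ± 2.36 CPM (SD, n = 3; log2 fold change 2.95, SE 0.15, edgeR adjusted p = 1.72e-06). Its value is uncertain, since 39.3% of its exon bases overlap Gm26649 on the opposite strand and the strand setting of the counts is not given in the sources used here. Klf11, the TGF-beta-inducible relative of Klf10, reached 33.6 ± 5.61 CPM from 13.3 ± 3.56 CPM in EV (log2 fold change 1.33, SE 0.28, edgeR adjusted p = 5.18e-04). Klf1, the erythroid factor, was at 3.31, 5.62 and 2.83 CPM in EV 1 to 3 and at 0.702, 0.664 and 0.709 CPM in Sox4 1 to 3, a fall (log2 fold change -2.49, SE 0.29, edgeR adjusted p = 3.94e-04). The globin genes Hba-a1 and Hbb-bs, defining genes of the red cell line, were at no more than 0.154 and 0.363 CPM in EV. In Sox4 they were at 0.200 to 0.562 and at 0.456 to 1.12 CPM, above EV, and both were below the filter. The part of red cells in the Klf1 value was not tested. Klf16 had a log2 fold change of -0.31 (edgeR adjusted p = 0.477), and Klf8, Klf14 and Klf17 had no count in any library. Of all 17 Klf genes 12 were tested, 4 higher and 4 lower. Of all tested genes 29% were higher and 26% lower, which is the background for this count and for those of the lists below. The activators (Klf6 and Klf7 higher, Klf1 lower), the CtBP-binding repressors (Klf3 higher, Klf12 lower) and the Sin3A-binding repressors (Klf11 higher, Klf9 lower) each held genes of both directions.

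The Sp genes, the sister family that binds the same GC boxes, were compared in the same way. Of 5 tested genes 0 passed the edgeR threshold, and 0 had an unadjusted p under 0.05, and 0 passed by DESeq2 or limma-voom. Sp1 was at 53.0, 51.4 and 48.0 CPM in EV and at 43.5, 48.7 and 42.9 CPM in Sox4 (log2 fold change -0.17, edgeR adjusted p = 0.191). Sp3 (0.18), Sp2 (0.07), Sp4 (0.04) and Sp5 (-1.36, with at most 1.31 CPM in a library) had adjusted p of 0.303 or more, apart from Sp5 at 0.120. With library size alone Sp3 (0.65), Sp2 (0.54) and Sp1 (0.30) passed as higher, and without Sox4 replicate 1 Sp3 (0.32) did.

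Among 11 tested cofactors of KLFs and ligases that degrade them, 5 were higher and 2 lower, against 29% and 26% of all tested genes. Hdac2, a deacetylase of the Sin3A complex, rose from 25.6 ± 0.70 to 110 ± 4.32 CPM (SD, n = 3; log2 fold change 2.11, SE 0.04, edgeR adjusted p = 5.90e-07), and Hdac1 (0.63), Hdac3 (0.46), Ctbp1 (0.49) and the acetyltransferase gene Ep300 (0.41) were also higher. Kat2b, an acetyltransferase gene (-0.55), and Wwp1, the ubiquitin ligase of KLF2 and KLF5 (-0.43), were lower, although with library size alone neither passed, at -0.08 and 0.04, and Wwp1 did not pass without EV replicate 3 (-0.39). Sin3a (-0.11) and Sin3b (0.04) did not pass. In the MEK5, ERK5 and MEF2 cascade, which induces Klf2 and Klf4, 2 of 6 tested genes were higher and 1 lower. Mapk7, which encodes ERK5, was at 0.771, 1.29 and 0.436 CPM in EV and at 7.97, 8.27 and 6.13 CPM in Sox4 (log2 fold change 3.16, SE 0.41, edgeR adjusted p = 6.31e-05). Mef2d was higher (0.44) and Map2k5, which encodes MEK5, lower (-0.44), but Map2k5 did not pass when EV 2 (-0.48), EV 3 (-0.41), Sox4 2 (-0.40) or Sox4 3 (-0.35) was left out, or with no filter (-0.40), and was at 0.03 with library size alone. Mef2d failed it without EV replicate 2 (0.42) or EV replicate 3 (0.33).

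Receptors and targets of the hormones that act on Klf9 and Klf15 were compared next. Nr3c1, the glucocorticoid receptor, was at 104, 97.9 and 110.5 CPM in EV 1 to 3 and at 36.1, 36.6 and 36.3 CPM in Sox4 1 to 3, with a log2 fold change of -1.52 (SE 0.05, edgeR adjusted p = 3.23e-06). Hsd11b1, which regenerates active glucocorticoid, was lower at 48.6 ± 14.1 CPM in Sox4 against 614 ± 46.5 CPM in EV (log2 fold change -3.66, SE 0.28, edgeR adjusted p = 2.39e-06). Of 10 genes of this list 4 were lower and 1 higher. The lower ones included Tsc22d3 (-1.69) and Tat (-1.59), and the higher one was Sgk1 (4.57), while Fkbp5 (-0.30) and Per1 (0.84) did not pass. Tsc22d3, or GILZ, did not pass without Sox4 replicate 1 (-1.85, edgeR adjusted p = 0.0519), with no filter (-1.65, adjusted p = 0.0709) or with the replicate block (-1.59, adjusted p = 0.111). Of 6 genes of the thyroid hormone list 5 were lower, among them Thrsp (-5.73), the deiodinase gene Dio1 (-3.76) and the receptor genes Thrb (-0.93) and Thra (-0.68), and Hr was higher (2.53). Without EV replicate 1 or without Sox4 replicate 2, 3 of the list were lower. Hr passed in 6 of 14 alternatives only, with values from 1.97 without EV replicate 2 to 4.95 without EV replicate 1.

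All 10 amino acid catabolism genes linked to KLF15 were lower, with a median log2 fold change of -1.41. Prodh, proline dehydrogenase, was at 268, 218 and 165 CPM in EV 1 to 3 and at 16.3, 11.2 and 20.6 CPM in Sox4 1 to 3 (log2 fold change -3.76, SE 0.32, edgeR adjusted p = 7.84e-06). Aass (-1.95), Otc (-1.88) and Tat (-1.59) followed. As a background, 8 of 10 hepatocyte markers were also lower, with a median of -0.97, and the 2 lists share Tdo2.

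Of 8 TGF-beta responsive genes, the pathway that induces Klf10 and Klf11, 7 were higher, against 29% of all tested genes. They included Smad7 (2.49) and Pmepa1 (5.41), and Ccn2 was at least 79.0-fold higher, since every EV library was at or under 3 counts. Bambi (0.77) did not pass. Of 14 immediate early genes, the class to which Klf2, Klf4, Klf6 and Klf10 belong in stimulated cells, 8 were higher and 0 lower, with 0 lower also by DESeq2, by limma-voom and at an unadjusted edgeR p under 0.05. Without Sox4 replicate 1, 1 was lower. Ier3 (6.50), Fosb (4.47) and Atf3 (3.87) were the largest, and Dusp1 (0.06), Ier2 (0.23) and Zfp36 (-0.44) did not pass. Levels varied between the Sox4 libraries. Fosb was at 136, 91.4 and 59.6 CPM and Atf3 at 128, 101 and 75.0 CPM in Sox4 1 to 3. Ier3 had the opposite order, at 14.3, 23.1 and 25.9 CPM. Of 17 clock genes 5 were lower, led by Per2 (-0.91), Bhlhe40 (-0.83) and Nr1d2 (-0.81), and 0 were higher, also at an unadjusted edgeR p under 0.05 and by limma-voom. Bhlhe40 did not pass without EV replicate 3 (-0.56) or Sox4 replicate 1 (-0.64), nor Nr1d2 without Sox4 replicate 1 (-0.69), and the number of clock genes lower ranged from 3 without Sox4 replicate 1 to 8 without EV replicate 1 or Sox4 replicate 2. Dbp (-1.10) passed only without EV replicate 1 (-1.54). With library size alone no clock gene was lower and 2 were higher. By DESeq2 1 clock gene, Per1, was higher.

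Of 9 tested genes described as KLF targets 4 were higher and 2 lower, against 29% and 26% of all tested genes. Cdkn1a, the p21 gene that KLF4 and KLF6 induce, rose from 120 ± 15.2 to 344 ± 105 CPM (SD, n = 3; log2 fold change 1.51, SE 0.26, edgeR adjusted p = 2.45e-04), and Ccnd1, which KLF5 induces, rose by 3.22 on the log2 scale. Atg7, an autophagy gene described as a KLF6 target in hepatocytes, was lower (-0.88, edgeR adjusted p = 2.33e-04), and Becn1, another, did not pass (0.02). The plot of related lists sets these genes beside the Klf family.

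**Figure D4:**
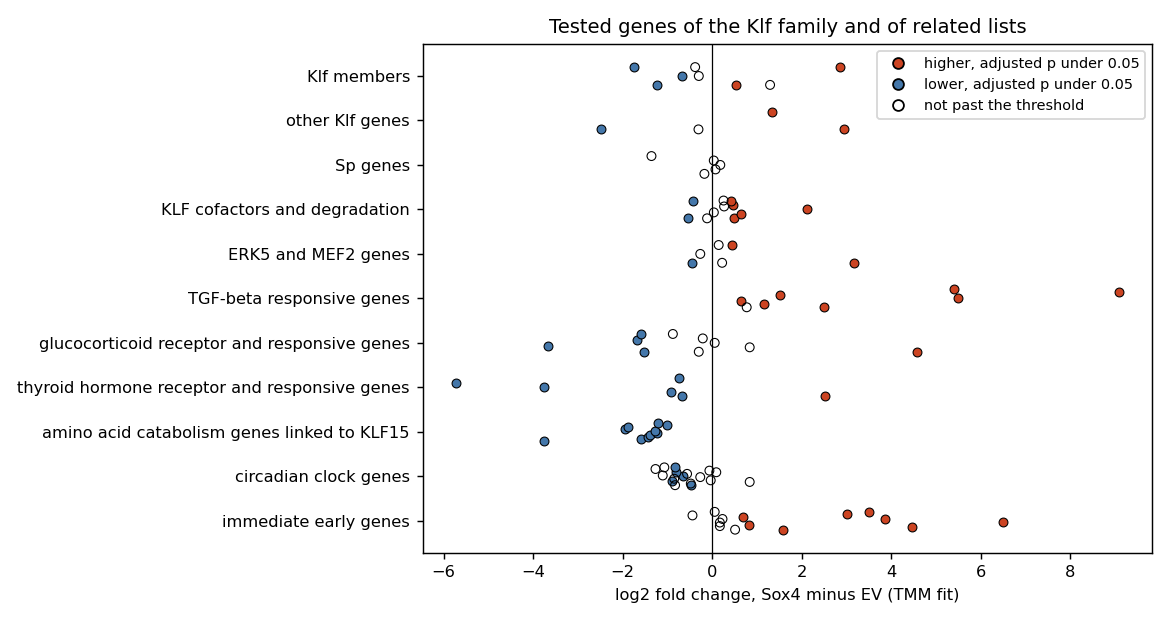
Log2 fold change of Sox4 over EV in the TMM fit (horizontal axis) for each tested gene of the Klf members and 10 related lists, with red points higher, blue points lower and open points not past an adjusted p of 0.05. The Klf points spread to both sides of 0, the Sp points are all open, and the 10 points of the amino acid catabolism list are all blue. The fitted value of Ccn2, at the far right, rests on EV libraries at the floor.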

How the data were processed

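Hepatocyte RNA was sequenced in 3 EV and 3 Sox4 libraries, and the authors deposited raw read counts per gene symbol. Per the submitters' notes reads were aligned with STAR 2.7.10b to GRCm39 and counted with featureCounts 2.0.1; the study's list of software names another STAR release. The annotation release and the strand and multimapping settings are not given in the sources used here, so reads of overlapping genes may be shared. A second deposited table of normalized values derives from the same counts and was not used.

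Genes were kept by filterByExpr (minimum count 10, total 15) and fitted in R 4.3.3 with edgeR 4.0.16 (TMM, robust quasi-likelihood F test, Benjamini-Hochberg over all tested genes). SEs are those of the difference between the groups in mean log2 CPM (prior count 2). DESeq2 1.42.0 and limma 3.58.1 served as alternatives. The fit was also run on simulated data with few changed genes, evenly up and down. That setting differs from these data, where 55.1% of tested genes were called, so it does not test the scaling used here. A floor of 3 counts per library was used, and it covers counting error only. Lengths and overlaps came from GENCODE M21 on GRCm38, and promoters from RefSeq on GRCm38.p6. Protein sequences were not analysed here. Named genes were the Klf genes and, in each related list, genes fixed by name and those with the largest changes past the threshold. Other genes of the lists that are named were picked after their values were seen. Members and lists were chosen with earlier results of these data known. The values of 1 gene of the related lists are not reported here.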

Additional observations from a re-analysis of the deposited data

How the results depend on the processing

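For the 8 tested Klf genes, 97 of 111 values under other settings kept direction and side of the threshold, 1 was weaker, 9 were stronger and 4 were reversed, and for 47 other named genes 612 of 655 kept both, with 26 weaker, 7 stronger and 10 reversed. The reversed values with library size alone were Klf10 0.17, Klf13 0.091, Fkbp5 0.17, Nos3 0.098, Klf16 0.16, Sp1 0.30, Wwp1 0.036 and Map2k5 0.029. Klf10 reversed to 0.55 without EV replicate 3 and 0.02 without Sox4 replicate 1, Nos3 to 0.018 without Sox4 replicate 1, and Sp4 to -0.07, -0.22 and -0.02 without EV replicate 2, EV replicate 3 and Sox4 replicate 1. With 1 library left out Klf10 ranged from -0.76 to 0.55, Nos3 from -0.91 to 0.018 and Sp4 from -0.22 to 0.42. The cause was not tested. With library size alone 79.9% of called genes were higher, against 52.7% with TMM. With no filter 4 Klf members were higher, Klf2 (1.33) and Klf5 (4.92) being added, where Klf5 has no EV counts and its fitted value is no bound, and 4 were lower, with Klf13 (-0.34) added. Leaving out 1 library gave 2 to 3 members higher, 3 to 4 lower and 6027 to 7269 genes called in all.

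Same-numbered libraries correlated at 0.27, -0.09 and 0.13 in their deviations from the group means, and pairs of unlike number at -0.27 to 0.18. The labels do not say whether same-numbered libraries were handled together, and this was not tested. With the replicate block 3862 genes were higher and 3500 lower, and Klf2 passed (1.42, edgeR adjusted p = 0.0443). Depth limits Klf4 and Klf5, which lay near the floor of 0.150 to 0.231 CPM.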
